A study of Homo sapiens with 2 samples.

Results

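The DEAD and DEAH box RNA helicases of Caco-2 cells were taken as the protein-coding (NM) RefSeq records whose gene symbol begins with DDX or DHX and a number, without DDX3Y. This gave 52 genes of 18646 NM records and of 23709 records in all. Caco-2 is a human colorectal adenocarcinoma line, grown in DMEM with serum and antibiotics and given no treatment in the labels. One library was made from poly(A) RNA that was isolated bound to ribosomes and their nascent chains (RNC-mRNA), a preparation aimed at mRNAs under translation. The other was made from poly(A) RNA of total RNA (the mRNA library). Library totals were inferred from the values as 11083302 reads (RNC-mRNA) and 9640364 reads (mRNA). The labels do not say whether both libraries came from the same culture. With 1 library per kind, no difference given here has a replicate check, and no test was possible.

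DEAD and DEAH box proteins use ATP to open short RNA duplexes or to strip proteins from RNA. They share a helicase core in which an Asp-Glu-Ala-Asp or Asp-Glu-Ala-His quartet, known as motif II, contacts the nucleotide. DEAD box proteins mostly pry apart local structure, and DEAH box proteins mostly move along a strand. Each step of an mRNA's life has its own members, in splicing, nuclear export, ribosome assembly, translation initiation and decay, and a few act in mitochondria, in virus sensing or on DNA.

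The intestinal epithelial identity of the line was checked on marker genes. All 10 markers chosen for it were expressed, from 40.2 RPKM (CDX1) to 1693 RPKM (KRT8) in the RNC-mRNA library and from 35.0 RPKM (CDX1) to 1874 RPKM (APOA1) in the mRNA library. Of 9 genes of leukocytes, endothelium, fibroblasts and germ cells, 6 lay below a mean of 1 RPKM and 3 were expressed. The 6 include DDX4, which is itself 1 of the 52 genes. The germ cell gene DAZL was listed at 0 in both libraries, and the leukocyte gene PTPRC had 0.0332 RPKM (RNC-mRNA) and 0.363 RPKM (mRNA). The collagen gene COL1A1 had 26.1 RPKM (RNC-mRNA) and 46.8 RPKM (mRNA), and the endothelial PECAM1 had 1.58 and 4.12 RPKM in the same order. DCN had 2.37 RPKM (RNC-mRNA) and 2.36 RPKM (mRNA).

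Values are RPKM, read numbers scaled by transcript length and library size, so levels can be compared between genes. A gene was called expressed at a mean of at least 1 RPKM over both libraries. The translation ratio is log2((RNC-mRNA + 0.1) / (mRNA + 0.1)) relative to the median of all 13402 expressed records, which is called the centre. The counting interval of a ratio is an exact Clopper-Pearson 95% interval from the reads behind each value. It covers counting error alone, since PCR copies are not independent molecules.

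The coding sequence around motif II is printed for the members on which the results turn. These are the 3 most abundant by mean level, the near-identical pair DDX19A and DDX19B, the 3 of highest ratio and the 4 of lowest ratio. The sequences are the sense strand of GENCODE release 29 transcripts (GRCh38), read 5′ to 3′, and the capitals mark the codons of motif II.
DDX39B, chr6:31536501-31536548, minus strand, exon 5: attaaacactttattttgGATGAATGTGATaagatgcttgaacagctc
DDX17, chr22:38494925-38494972, minus strand, exon 7: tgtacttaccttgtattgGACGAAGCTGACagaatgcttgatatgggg
DDX5, chr17:64503227-64503274, minus strand, exon 7: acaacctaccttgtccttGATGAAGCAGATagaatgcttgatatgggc
DDX19A, chr16:70366183-70366230, plus strand, exon 8: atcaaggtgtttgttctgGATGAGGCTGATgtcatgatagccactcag
DDX19B, chr16:70329390-70329437, plus strand, exon 8: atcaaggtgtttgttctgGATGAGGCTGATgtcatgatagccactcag
DDX6, chr11:118760021-118763235, minus strand, joining exons 7 and 8, intron left out: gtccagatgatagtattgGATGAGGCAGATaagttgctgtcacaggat
DHX33, chr17:5462388-5462435, minus strand, exon 3: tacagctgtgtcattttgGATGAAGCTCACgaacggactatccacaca
DDX49, chr19:18921953-18922361, plus strand, joining exons 4 and 5, intron left out: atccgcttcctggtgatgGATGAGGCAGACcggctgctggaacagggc
DDX11, chr12:31091788-31091835, plus strand, exon 10: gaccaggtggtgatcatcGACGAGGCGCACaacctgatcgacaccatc
DDX51, chr12:132141385-132141509, minus strand, joining exons 7 and 8, intron left out: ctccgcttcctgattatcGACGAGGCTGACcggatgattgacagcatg
DDX55, chr12:123608771-123608818, plus strand, exon 6: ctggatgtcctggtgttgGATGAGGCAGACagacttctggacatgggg
DHX36, chr3:154304912-154304959, minus strand, exon 8: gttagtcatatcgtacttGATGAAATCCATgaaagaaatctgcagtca

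Motif II was read from 43 of the 44 expressed members, all but DHX32. The search took the codons of Asp-Glu, then of Ala, Val, Ile, Cys or Ser, then of Asp or His, downstream of the ATP-binding motif I. It found a match in 0.658% of 11543 other expressed NM records. The quartet was DEAD in 25 members, written in 11 different codon spellings, and DEAH in 8 members with 7 spellings. The other members carried DEVH (4), DEVD (2, the paralogs DDX21 and DDX50), DECD (DDX39B), DECH (DDX58), DEIH (DHX36) and DESD (DDX52). DDX11 is named with the DEAD box genes and carried DEAH. The printed stretch is the same in DDX19A and DDX19B, whereas DDX5 and DDX17 write the same DEAD quartet with different codons.

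The family's mRNAs were present at nearly the same summed level in both libraries. The 52 genes summed to 1300.2 RPKM in the RNC-mRNA library and 1332 RPKM in the mRNA library, which is 0.298% and 0.309% of the summed RPKM of all NM records. The 44 expressed members had a median level of 20.3 RPKM (RNC-mRNA) and 22.3 RPKM (mRNA), against 10.1 and 10.6 RPKM for all 11940 expressed NM records. They ranged from 2.37 RPKM (DDX58) to 151 RPKM (DDX39B) in the RNC-mRNA library, and from 2.97 to 150.3 RPKM, again DDX58 and DDX39B, in the mRNA library. At the transcript length nearest the reference, expressed members held a median of 836 reads (RNC-mRNA) and 790 reads (mRNA). The fewest were the 116 and 84 reads of DDX59. A lower bound, the fewest whole reads that explain both values, uses no transcript length. It was 29 and 21 reads for DDX59 and 15 and 11 reads for DDX52. Such a bound need not match a possible length of the transcript.

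**Figure D1:**
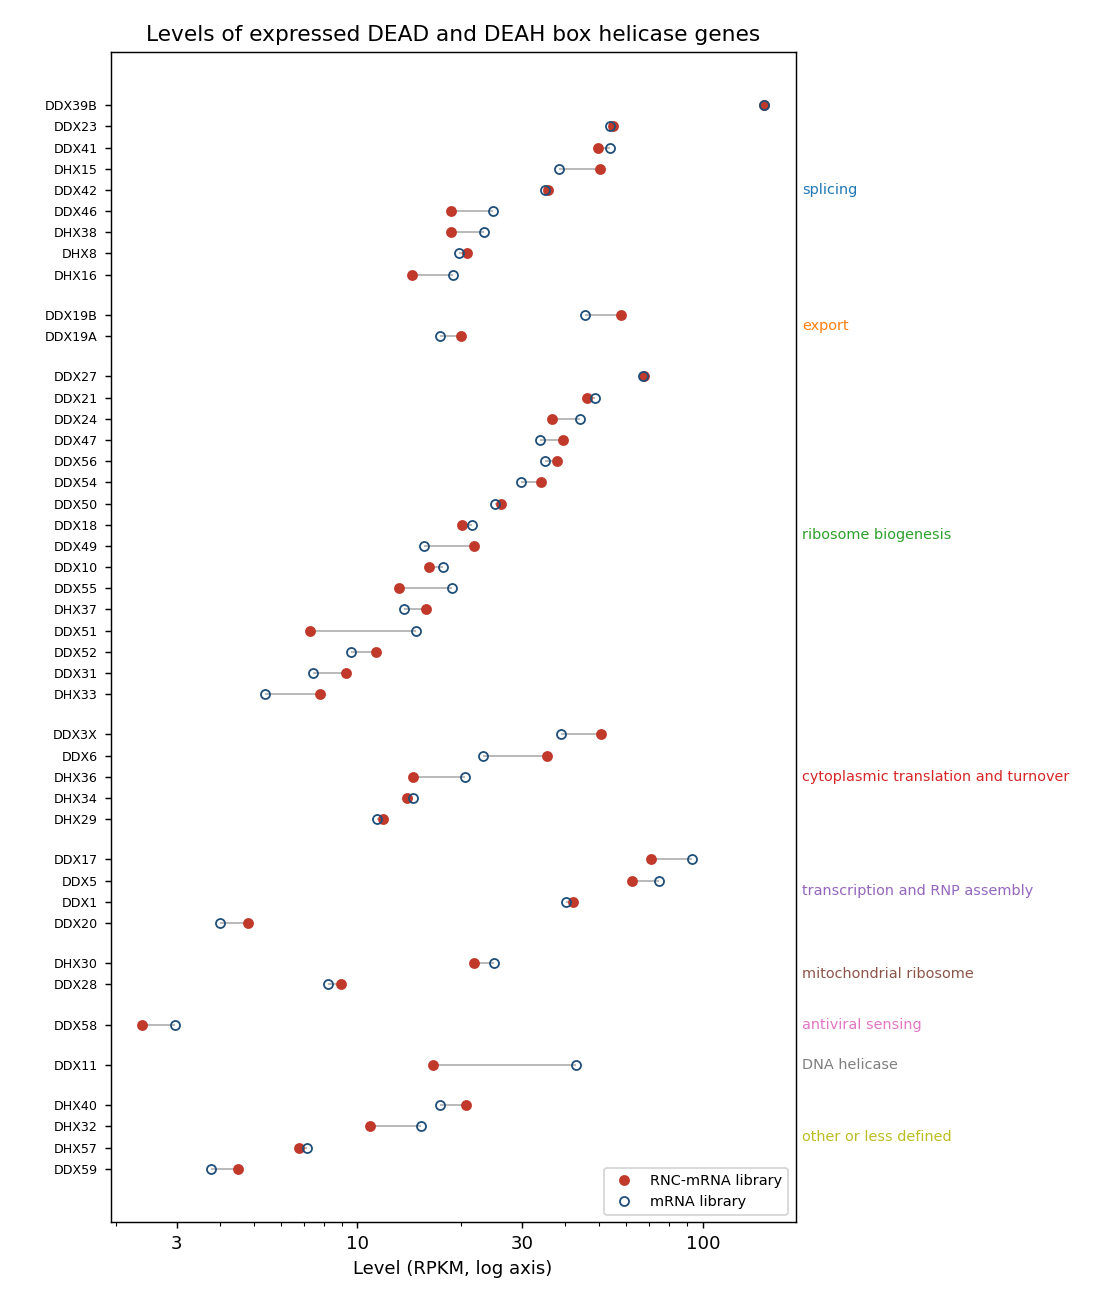
Levels of the 44 expressed helicase genes by role. Filled points give the RNC-mRNA library and open points the mRNA library, in RPKM on a log axis, with 1 library each. DDX39B lies highest at 151 and 150.3 RPKM, and the longest line joins the 16.5 and 42.9 RPKM of DDX11.

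Translation ratios of the helicases stayed close to the centre. The median of the 44 expressed members was 0.06 (-0.02 where expressed meant a mean of at least 5 RPKM), with a lower quartile of -0.22 and an upper quartile of 0.26, against a median of 0.03 and quartiles of -0.34 and 0.30 for all expressed NM records. Of the 44, 25 lay above the centre and 19 below it, against 52.6% and 47.4% of expressed NM records. No member was at least 2-fold above the centre, where 1.33% of NM records were, and 1 member, DDX11, was at least 2-fold below it, where 8.88% were. The members lie between 2.67 and 151 RPKM in mean level. Among the 9783 NM records within that range, 1.09% were at least 2-fold above the centre and 6.01% at least 2-fold below, and 56.0% lay above it and 44.0% below. The median of those records was 0.07 and the standard deviation of their ratios 0.57, against 0.38 for the helicases. Their median level was 12.3 RPKM (RNC-mRNA) and 12.8 RPKM (mRNA), against 20.3 and 22.3 RPKM for the helicases. The records thus share the range of the helicases but are not matched to them in level. The nearest values on either side of the 2-fold line were DDX11 at -1.33 and DDX51 at -0.97.

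Smaller departures were common and exceeded counting error about as often as in other genes. The counting interval lay wholly above the centre for 14 members (31.8%) and wholly below it for 12 (27.3%), and it spanned the centre for 18. The same counts were 33.6% above and 29.6% below over all expressed NM records, and 36.8% and 27.7% over those within the members' level range. For 5 members, DDX19A, DDX19B, DDX52, DDX55 and DHX16, the interval spanned the centre at the fewest reads that explain both values. Those reads are a lower bound that uses no transcript length. At that bound 11 members lay above and 10 below. For DHX16 only 1 length within 50% of the reference gave whole reads. Its call, at 552 reads (RNC-mRNA) and 632 reads (mRNA), thus did not depend on a choice among lengths.

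**Figure D2:**
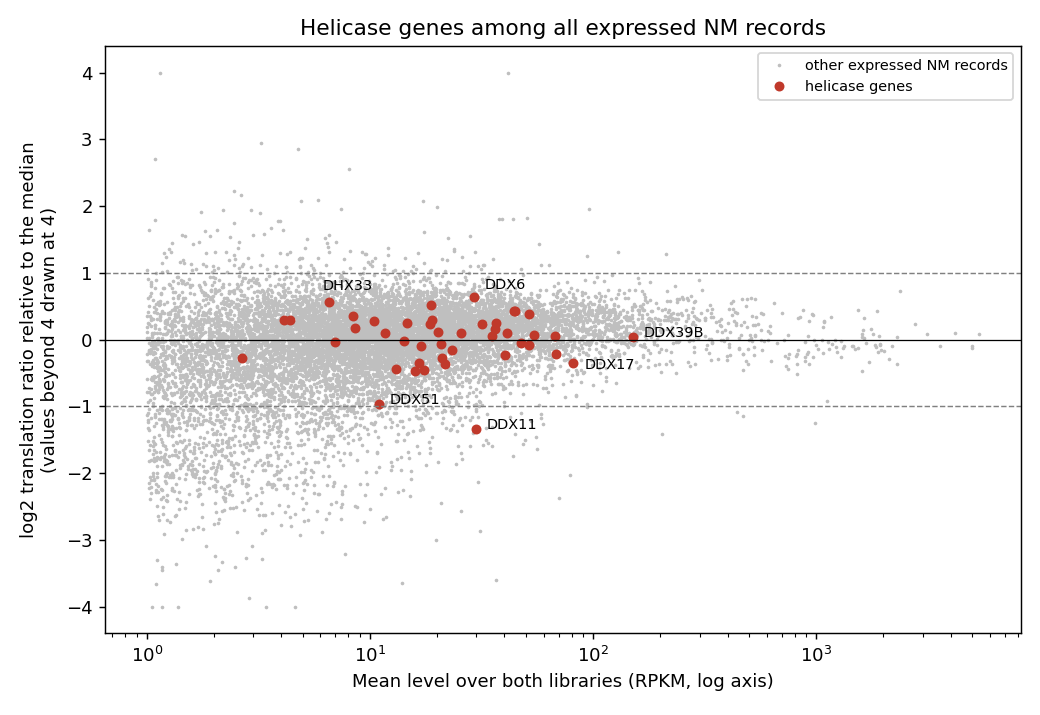
Translation ratio (log2, relative to the centre) against mean level (RPKM, log axis). Red points are the 44 expressed helicase genes, grey points are the other expressed NM records, and dashed lines mark 2-fold. DDX11 at -1.33 is the one red point outside the dashed lines, and DDX51 at -0.97 lies just inside.

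The splicing helicases held the largest share of the family's signal by a narrow margin, with 31.8% (RNC-mRNA) and 31.4% (mRNA) of its summed RPKM. Ribosome biogenesis helicases held 31.5% and 30.6%. Of the splicing sums of 414 RPKM (RNC-mRNA) and 418 RPKM (mRNA), DDX39B alone gave 151 and 150.3 RPKM. The rank therefore rests on the group to which DDX39B was assigned. The 9 splicing members had a median ratio of 0.04 and ranged from -0.36 to 0.43. DDX39B, also called UAP56, acts in early spliceosome assembly and in mRNA export, and it was the most abundant helicase of the family at 151 RPKM (RNC-mRNA) and 150.3 RPKM (mRNA). Its ratio was 0.04, with an interval of -0.03 to 0.11 that spans the centre. DDX23, the counterpart of yeast Prp28, which helps hand the 5′ splice site from one small nuclear RNA to the next, had 54.8 and 53.9 RPKM and a ratio of 0.06. DDX42, which associates with the U2 particle, had 35.5 and 35.0 RPKM (0.06), and the spliceosome component DDX41 had 49.6 and 53.9 RPKM (-0.08). These 4 well-expressed members had near-equal levels in both libraries.

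The other 5 splicing helicases, counterparts of yeast Prp proteins, did not share a direction. DHX15, the counterpart of yeast Prp43, takes spent spliceosomes apart and also serves ribosome assembly. It had 50.3 RPKM (RNC-mRNA) and 38.3 RPKM (mRNA), the highest ratio of the group at 0.43 (interval 0.32 to 0.54). DHX8, the counterpart of Prp22, releases the spliced mRNA, and at 20.8 and 19.7 RPKM its ratio was 0.11 with an interval that spans the centre. DHX16, the counterpart of Prp2, which drives activation before the first step, had 14.4 and 18.9 RPKM (-0.36, interval -0.53 to -0.19). DHX38, the counterpart of Prp16, which acts before the second step, had 18.6 and 23.3 RPKM (-0.28, interval -0.41 to -0.15). DDX46, the counterpart of Prp5, which admits the U2 particle to the branch site, had 18.7 and 24.7 RPKM and the lowest ratio of the group (-0.36, interval -0.48 to -0.25). DHX38 shares 13.3% of its 50-base windows with transcripts of other genes, mainly PMFBP1 and TXNL4B on the opposite strand. Here and below, a window counted as shared if it or its reverse complement occurred in a transcript of another gene.

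The export helicases DDX19A and DDX19B, counterparts of yeast Dbp5, strip proteins from mRNA at the nuclear pore. DDX19B had 58.1 RPKM (RNC-mRNA) and 45.5 RPKM (mRNA), a ratio of 0.39 (interval 0.30 to 0.48). DDX19A had 19.9 and 17.4 RPKM, a ratio of 0.23 (interval 0.06 to 0.41). Both lay above the centre. Their coding sequences are 95.3% identical over 1434 aligned bases, and 24.0% of the 50-base windows of DDX19A occur in DDX19B and 21.2% of those of DDX19B in DDX19A. More is shared with AC012184.2 on the same strand, 62.2% of the windows of DDX19A and 40.8% of those of DDX19B. The sources used here do not say how reads that fit several genes were assigned. The levels of these paralogs and the split between them are therefore uncertain.

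Ribosome biogenesis helicases were the largest group by number, and all 16 were expressed. They held 31.5% (RNC-mRNA) and 30.6% (mRNA) of the family's summed RPKM. Their median ratio was 0.12, with 10 members above the centre and 6 below. The interval lay wholly above it for 8 and wholly below for 3, where 33.6% and 29.6% of expressed NM records did so. DDX52 among the 8 and DDX55 among the 3 lose the call at the fewest reads. DDX27, which acts in large-subunit rRNA maturation, was the most abundant at 67.5 RPKM (RNC-mRNA) and 67.0 RPKM (mRNA), with a ratio of 0.05. DDX21, a nucleolar helicase of rRNA transcription and processing, had 46.0 and 48.9 RPKM (-0.05), and its paralog DDX50 had 26.1 and 25.1 RPKM (0.09). DDX21 and DDX50 are 68.2% identical in the coding sequence and shared no 50-base window.

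Among these 16 genes, DHX33, a nucleolar helicase that promotes rRNA synthesis, had the highest ratio. It had 7.77 RPKM in the RNC-mRNA library and 5.39 RPKM in the mRNA library, a ratio of 0.56 (interval 0.35 to 0.78). DDX49, the counterpart of yeast Dbp8 in small-subunit assembly, followed with 21.8 and 15.6 RPKM (0.52, interval 0.30 to 0.74). DDX31, the counterpart of Dbp7, was next at 0.35, and DDX52, the counterpart of Rok1, was at 0.28. DDX47, the counterpart of Rrp3, DHX37, which frees the U3 small nucleolar RNA from pre-ribosomes, and DDX54, a nucleolar factor of large-subunit assembly, had ratios of 0.25, 0.25 and 0.23. The nucleolar DDX56 was at 0.15. DDX18, the counterpart of Has1, and DDX10, the counterpart of Dbp4, were at -0.07 and -0.09 with intervals that span the centre.

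The low end of this group held DDX51, DDX55 and DDX24. DDX51, the counterpart of yeast Dbp6, which displaces the U8 small nucleolar RNA from precursor rRNA, had 7.29 RPKM (RNC-mRNA) and 14.7 RPKM (mRNA). Its ratio of -0.97 had an interval of -1.16 to -0.79 and was exceeded by that of 90.7% of expressed NM records. DDX51 shares 3.23% of its 50-base windows with transcripts of other genes, spread over 358 of them. DDX55, the counterpart of Spb4, had 13.2 and 18.8 RPKM (-0.46, interval -0.66 to -0.27). Its transcript overlaps that of EIF2B1 on the opposite strand over 20.2% of its exonic bases, and EIF2B1 had 37.5 RPKM (RNC-mRNA) and 33.4 RPKM (mRNA). The nucleolar DDX24 had 36.7 and 44.0 RPKM (-0.22, interval -0.31 to -0.14).

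**Figure D3:**
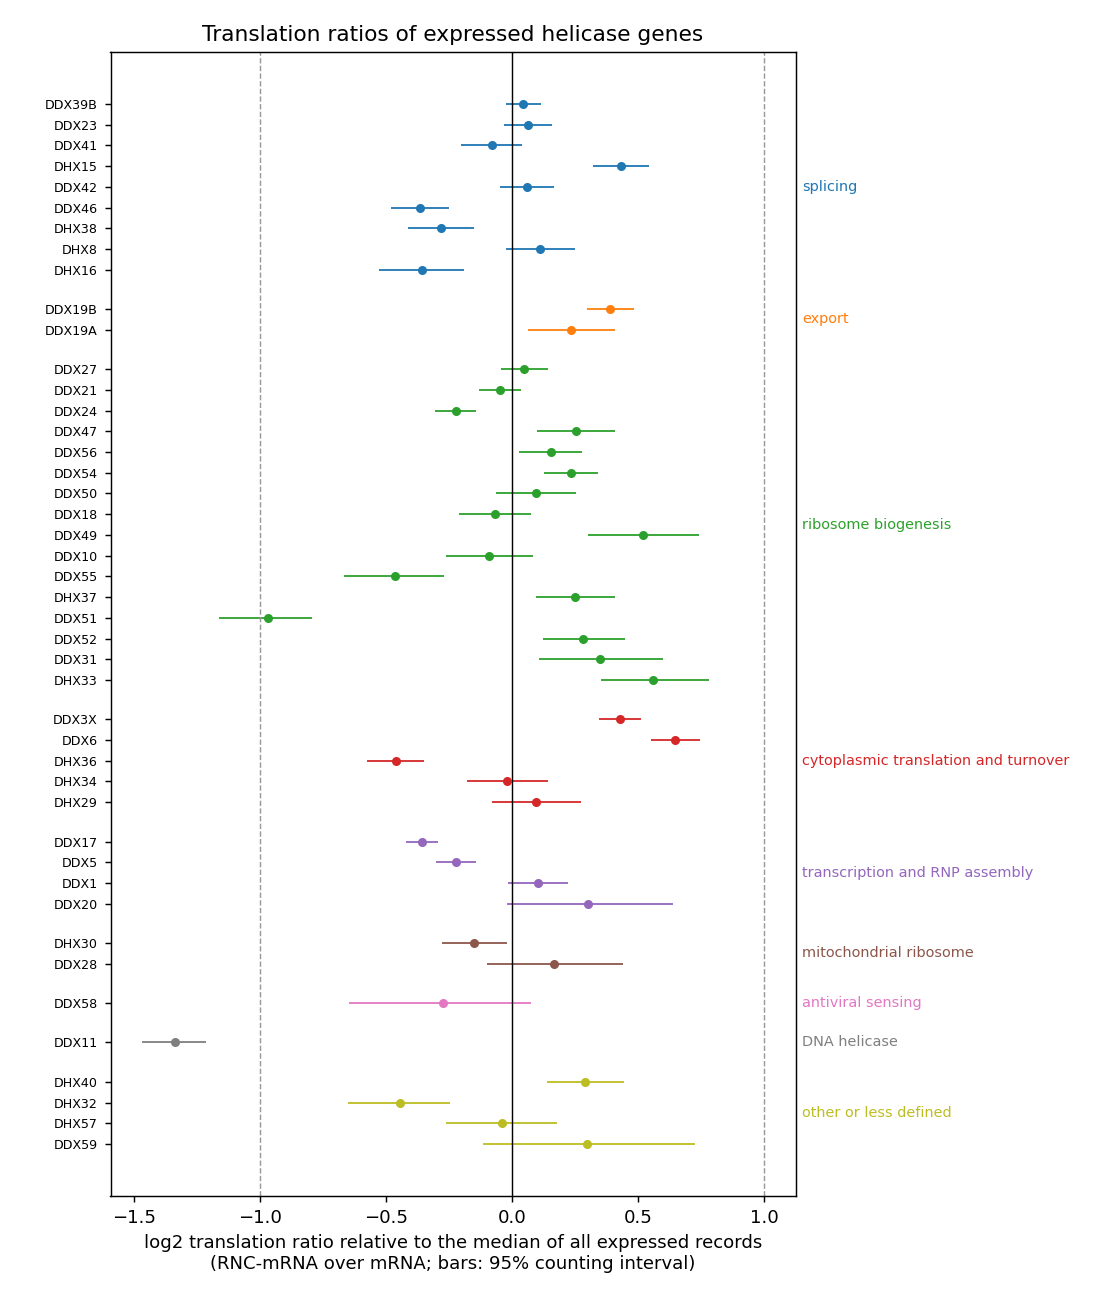
Translation ratio of each expressed helicase gene (log2, relative to the centre), by role, with 95% counting intervals as bars and dashed lines at 2-fold. Ribosome biogenesis members reach from DDX51 at -0.97 to DHX33 at 0.56. DDX6 is highest at 0.65 and DDX11 lowest at -1.33.

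The 5 cytoplasmic helicases of translation and mRNA turnover held 9.71% of the family's summed RPKM in the RNC-mRNA library and 8.13% in the mRNA library. DDX6, a core component of processing bodies that acts in decapping and microRNA repression, had the highest ratio of all 44 members. It had 35.3 RPKM in the RNC-mRNA library and 23.1 RPKM in the mRNA library, a ratio of 0.65 (interval 0.55 to 0.74), which is above that of 94.1% of expressed NM records. DDX3X, which aids initiation on structured mRNAs, had 50.8 and 38.8 RPKM (0.43, interval 0.35 to 0.51). The interval of each lay wholly above the centre.

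The other cytoplasmic members differed from these. DHX29, which binds the small ribosomal subunit during scanning, had 11.9 RPKM (RNC-mRNA) and 11.4 RPKM (mRNA), a ratio of 0.10. DHX34, a factor of nonsense-mediated decay, had 13.9 and 14.5 RPKM (-0.02), and both intervals span the centre. DHX36, which unwinds G-quadruplexes, had 14.5 and 20.5 RPKM (-0.46, interval -0.58 to -0.35). It was therefore among the 4 lowest of the 44 expressed members.

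Helicases of transcription and RNP assembly held 13.8% (RNC-mRNA) and 15.9% (mRNA) of the family's summed RPKM. DDX17 and DDX5 are paralogs that serve as transcription coregulators and in microRNA processing, and by mean level they were the most abundant members after DDX39B. DDX17 had 70.5 RPKM in the RNC-mRNA library and 92.7 RPKM in the mRNA library, a ratio of -0.36 (interval -0.42 to -0.29). DDX5 had 62.2 and 74.5 RPKM (-0.22, interval -0.30 to -0.14). Both lay below the centre. Their coding sequences are 68.4% identical and shared no 50-base window. DDX1, a subunit of the tRNA ligase complex, had 42.0 and 40.2 RPKM (0.10). DDX20, also called Gemin3, which works with the SMN complex in small nuclear RNP assembly, had 4.81 and 3.99 RPKM (0.30, interval -0.02 to 0.64).

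**Figure D4:**
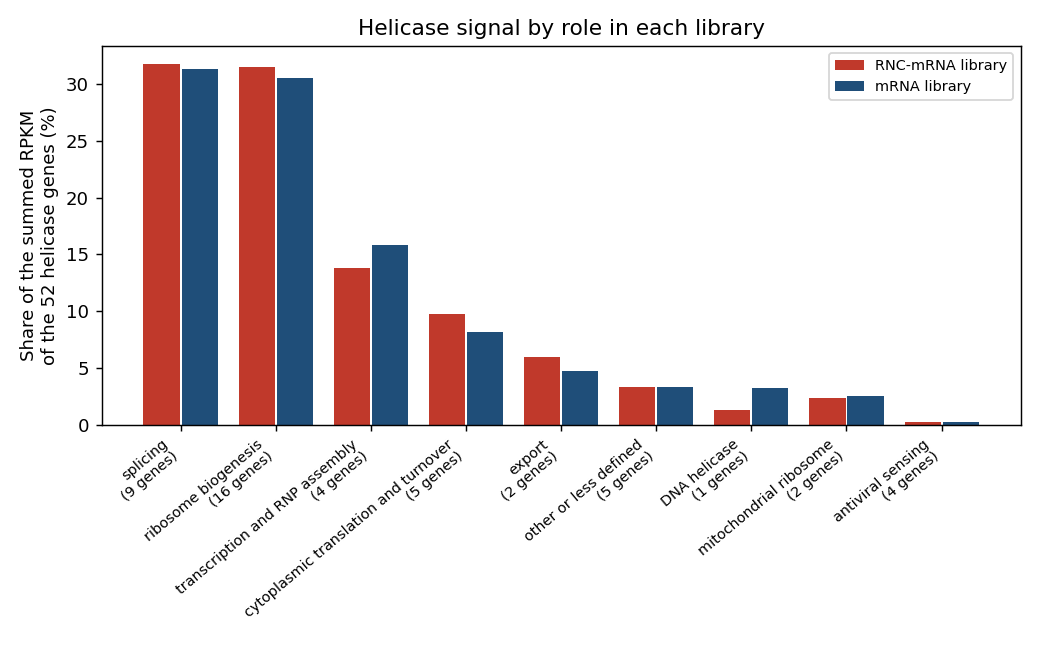
Share of the summed RPKM of the 52 helicase genes held by each role group (%), in the RNC-mRNA library (red) and the mRNA library (blue), with 1 library each. The DDX5 and DDX17 group holds 13.8% and 15.9%, the cytoplasmic group 9.71% and 8.13%, and DDX11 alone 1.27% and 3.22%; the germ line group, at under 0.01%, is not drawn.

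DDX11 had the lowest ratio of the expressed helicases. It is an iron-sulphur DNA helicase of sister chromatid cohesion, also called ChlR1, and differs in function from the RNA helicases whose name it shares. It had 16.5 RPKM in the RNC-mRNA library (719 reads) and 42.9 RPKM in the mRNA library (1625 reads). Its ratio of -1.33 (interval -1.47 to -1.21) was 2.52-fold below the centre and lower than that of 94.6% of expressed NM records.

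The sequence of DDX11 is not unique in the genome, and the reads of this gene are uncertain. Of its 3030 windows of 50 bases, 52.1% occur in transcripts of other genes, 40.2% in the pseudogene DDX12P and 42.7% in AC009533.1. These windows are those of a GENCODE transcript of 3079 bases, whereas the reads were worked out at a length of 3927 bases. The shares may therefore differ for the whole record. The printed 48-base stretch of DDX11 has 1 mismatch to its nearest match in DDX12P, T47C, with positions counted from 1 at the 5′ end. DDX12P, a non-coding (NR) record outside the 52 genes, had 3.51 RPKM (RNC-mRNA) and 16.1 RPKM (mRNA), a ratio of -2.13 (interval -2.42 to -1.90). DDX11 and DDX12P together had 20.0 and 59.0 RPKM, a ratio of -1.52. The part of DDX12P reads in the DDX11 value was not tested.

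**Figure D5:**
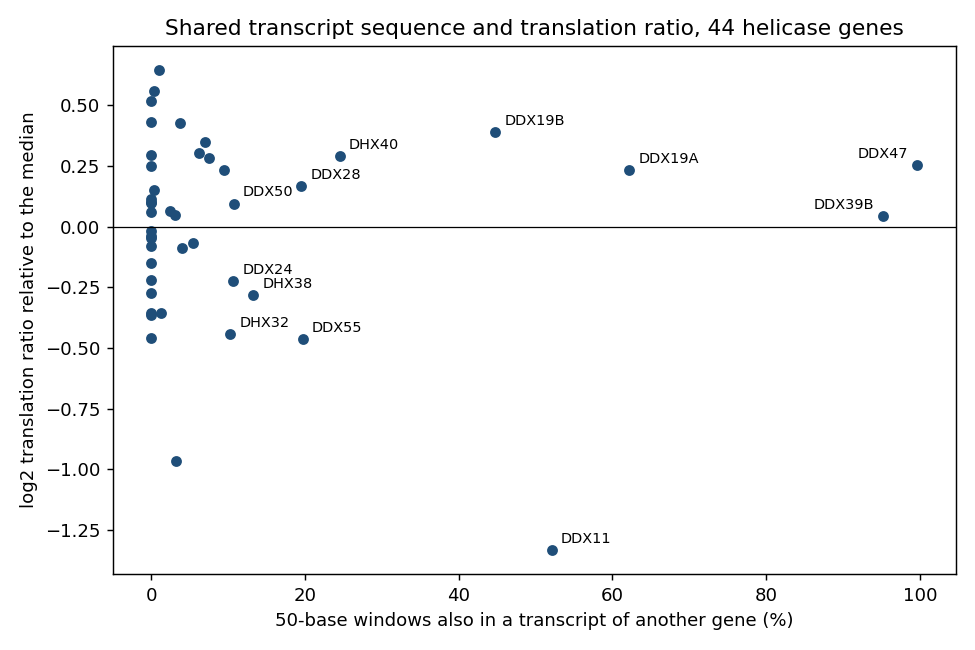
Translation ratio (log2, relative to the centre) of the 44 expressed helicase genes against the share of their 50-base transcript windows found in another gene (%). A window counts if it or its reverse complement occurs in a transcript of another gene. The 12 genes over 10% are named: DDX11 lies at 52.1% and -1.33, and the other 11 lie between -0.46 and 0.39.

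The ratio was also set beside the amount of shared sequence over all expressed members. Both strands were pooled, so opposite-strand overlaps, as in DDX24, DDX28, DDX55, DHX32 and DHX38, count as shared. The 17 members with no shared window had a median ratio of -0.04, the 15 members with up to 10% shared had a median of 0.15, and the 12 members with over 10% shared had a median of 0.07. DDX47 (99.7%) and DDX39B (95.2%) lie almost wholly within transcripts that GENCODE assigns to APOLD1 and to the read-through gene ATP6V1G2-DDX39B. In the deposited table APOLD1 had 1.43 RPKM (RNC-mRNA) and 2.67 RPKM (mRNA), and ATP6V1G2-DDX39B was listed at 0 in both. DHX40 shares 24.5% of its windows with the pseudogene DHX40P1.

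The mitochondrial helicases had ratios near the centre. DHX30, of the mitochondrial RNA granules, had 21.8 RPKM (RNC-mRNA) and 24.8 RPKM (mRNA), a ratio of -0.15 (interval -0.28 to -0.02). DDX28, which assembles the large mitochondrial ribosomal subunit, had 8.97 and 8.20 RPKM (0.17, interval -0.10 to 0.44). Its transcript overlaps that of DUS2 on the opposite strand over 22.5% of its exonic bases. Less well-defined members went both ways. DHX40 had 20.6 and 17.3 RPKM (0.29, interval 0.14 to 0.44), and DHX32 had 10.9 and 15.2 RPKM (-0.44, interval -0.65 to -0.25). DHX57 (-0.04) and DDX59 (0.30) had intervals that span the centre. The transcript of DHX32 overlaps that of BCCIP on the opposite strand over 13.2% of its exonic bases, and BCCIP had 28.0 RPKM (RNC-mRNA) and 24.1 RPKM (mRNA).

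Antiviral and germ line helicases were weak or not detected. DDX58, which encodes the RNA sensor RIG-I, was the one expressed antiviral member, with 2.37 RPKM (RNC-mRNA) and 2.97 RPKM (mRNA) and a ratio of -0.27 (interval -0.65 to 0.08). DHX58, which encodes the related LGP2, had 0.103 and 0.119 RPKM. DDX60 had 0.0297 and 0.0342 RPKM, and its paralog DDX60L had 0.0267 and 0.123 RPKM. Each of these 3 rests on 8 reads or fewer in either library, so no ratio was drawn from them. The coding sequences of DDX60 and DDX60L are 77.6% identical.

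The germ line genes DDX4 (the VASA homolog), DDX43 and DDX53 were listed at 0 in both libraries. At the length of its GENCODE transcript, a count of 0 allows DDX4 a level of up to 0.0939 RPKM (RNC-mRNA) and 0.108 RPKM (mRNA), taken as 3 reads. For DDX43 these limits were 0.108 and 0.124 RPKM, and for DDX53 they were 0.0746 and 0.0858 RPKM. The testis helicase DDX25 had 0.0984 and 0.0566 RPKM. DDX26B, now named INTS6L, is a relative of an Integrator subunit in whose coding sequence motif II was not found. It had 0.211 RPKM (RNC-mRNA, 9 reads) and 1.21 RPKM (mRNA, 45 reads), a ratio of -2.04 (interval -3.70 to -1.43), and its mean level fell short of 1 RPKM. It is therefore not among the 44.

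DEAD and DEAH box genes can also be set side by side by name. The 31 expressed DDX genes had a median ratio of 0.06 and spanned -1.33 to 0.65, and the 13 expressed DHX genes had a median of -0.02 and spanned -0.46 to 0.56. By motif, the 25 members with DEAD had a median of 0.10, with 16 above the centre and 9 below. The 8 members with DEAH had a median of 0.18, with 5 above and 3 below. The 4 members with DEVH had a median of -0.03, with 1 above and 3 below. For comparison, 52.6% of expressed NM records lay above the centre and 47.4% below. Over the 44 members, Spearman's rho of the ratio was -0.06 with mean RPKM, -0.16 with transcript length, -0.36 with coding length and -0.04 with the share of G or C at the third codon position. Over all expressed NM records rho was 0.28 with mean RPKM (n = 11940) and -0.11 with coding length (n = 11587). With transcript length it was -0.004 (n = 11346). These are descriptions across genes of the same 2 libraries, and genes are not independent replicates.

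RNA helicases without a DDX or DHX symbol were also listed. Of 22, 19 were expressed, with a median ratio of -0.11, 7 above the centre and 12 below. Expressed NM records had a median of 0.03, with 52.6% above the centre, 47.4% below and 8.88% at least 2-fold below. EIF4A1, the DEAD box subunit of the cap-binding complex, was by far the most abundant at 496 RPKM (RNC-mRNA) and 388 RPKM (mRNA), a ratio of 0.39 (interval 0.35 to 0.44). Its paralog EIF4A2 had 97.7 and 114 RPKM (-0.19). ASCC3, which splits collided ribosomes, was highest (9.16 and 6.80 RPKM, 0.46). DQX1 was lowest and the one member at least 2-fold below (0.891 and 2.01 RPKM, -1.05, interval -1.88 to -0.43).

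Partners of the helicases were all expressed, 38 of 38, with a median ratio of 0.06, 24 above the centre and 14 below. Of all 18646 NM records 11940 were expressed, and 52.6% of those lay above the centre and 8.88% at least 2-fold below. Their median was 0.03, and 0.07 within the level range of the DDX and DHX members. ALYREF, the export adaptor loaded by DDX39B, was the most abundant by mean level and had the highest ratio, with 143 RPKM (RNC-mRNA) and 96.4 RPKM (mRNA) (0.61, interval 0.50 to 0.72). C14orf166, a partner of DDX1 in the tRNA ligase complex, had 93.9 and 98.7 RPKM (-0.03). GEMIN8, which works beside DDX20 in the SMN complex, was the one partner at least 2-fold below the centre (3.41 and 10.0 RPKM, -1.49, interval -2.08 to -0.99). Among partners of DDX6 in repression and decapping, the ratio was 0.49 for PATL1, 0.42 for CNOT1, 0.41 for LSM14A, 0.08 for EDC3, 0.08 for DCP2, -0.04 for EIF4ENIF1 and -0.11 for EDC4. DCP1A lay at the centre, with 12.2 RPKM (RNC-mRNA) and 12.6 RPKM (mRNA).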

How the data were processed

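The deposited table holds RPKM for 23709 records in 2 libraries, computed by the authors before deposition, per the file headers. The submitters' processing notes name the build hg19. The aligner, the counter and the treatment of reads that fit several genes are not given in the sources used here.

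Library totals were inferred. Each is the whole number at which the largest number of records of known GENCODE release 29 length held whole reads, within 7 printed digits. These were 1153 records against 873 at the next best for RNC-mRNA, and 1391 against 643 for mRNA, of 23709 records deposited. All read numbers and counting intervals rest on these totals. Reads of each record were taken at the transcript length nearest its GENCODE length at which both values are whole, allowing a relative error of 2e-07. For 12 expressed members several lengths within 50% of the reference would do. Analyses used Python 3.11.15, NumPy 2.4.6, SciPy 1.17.1, pandas 2.3.3 and Biopython 1.88, and were tested on simulated data. Simulated data cannot check the lengths chosen for the real records. Some of these lay far from the GENCODE length, as for DDX11 (3927 against 3079 bases) and DDX3X (5396 against 6907). Others lay close to it, as for DDX27 (2695 against 2693). Depth limits precision through counting error alone. hg19 and GRCh38 coordinates were not mixed, since the table holds no coordinates.

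The members, role groups, lists and rule for named genes were chosen with earlier results of these data known. Members named in full are those of highest level, of highest and lowest ratio in each role group, those at least 2-fold from the centre, and paralog pairs. Groups were taken from the labels, 1 library each, so no test and no p-value is given. The NM records within the members' level range were added as a background after seeing the data.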

Additional observations from a re-analysis of the deposited data

Results flagged for a closer look

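Several records with a DDX or DHX symbol carry non-coding (NR) accessions and are outside the 52 genes, yet held more than 3 reads in at least 1 library. They were singled out because they show signal in data that the comparisons do not use. DHX9, a helicase of transcription and RNA processing, had 63.5 RPKM in the RNC-mRNA library and 51.2 RPKM in the mRNA library. DDX39A, the export paralog of DDX39B, had 50.9 RPKM (RNC-mRNA) and 44.8 RPKM (mRNA), and DHX35, a spliceosome helicase, had 10.7 and 9.75 RPKM in the same order. These 3 protein-coding genes are paired with NR records in the deposited table, and their relative ratios were 0.35, 0.22 and 0.18. The pseudogene DDX12P had 3.51 RPKM (RNC-mRNA) and 16.1 RPKM (mRNA). DDX11L9 had 0.601 and 2.13 RPKM, and DDX11L5 had 0.0545 and 0.439 RPKM. The antisense DDX11-AS1 had 1.55 and 1.33 RPKM. The sources do not say that counting used strand, so sense and antisense reads may be mixed.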

How the results depend on the processing

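The median ratio of the expressed helicases, 0.06, ranged from -0.02 to 0.07 over the alternatives and crossed the centre with a mean RPKM of at least 5 (-0.02). Of 393 single-gene values under the alternatives, 388 stayed within their counting interval and 5 moved. Of values called at least 2-fold from the centre 0 changed sign, but DDX11 was the one member so called. The 5 moved with a mean of at least 5, to -0.44 (DDX17), 0.34 (DDX3X), -0.30 (DDX5), -0.31 (DDX24) and, across the centre, -0.04 (DDX39B). DDX27 (0.05 to -0.03), DDX23 (0.06 to -0.02) and DDX42 (0.06 to -0.02) also crossed the centre there, within their intervals. The number of helicases at least 2-fold below the centre was 1, and became 2 with a mean RPKM of at least 5, with no centring, with the ratio of summed RPKM as the centre or with a 1.5-fold rule, 3 with no filter, and 0 with close paralogs, DDX11 among them, left out. DDX51 was at -1.05 with a mean of at least 5 and at -1.01 with no centring. Over the alternatives DDX51 ranged from -1.05 to -0.89 and DDX11 from -1.42 to -1.29. The number at least 2-fold above was 0, and 1 with the 1.5-fold rule. For all expressed NM records the counts above and below, 159 and 1060, were 89 and 679 with a pseudocount of 1 RPKM, 59 and 416 with a mean of at least 5, 300 and 2343 with no filter, and 922 and 1966 with the 1.5-fold rule. With a mean of at least 5, role group medians became -0.30 for transcription and RNP assembly (-0.06 at a mean of at least 1), -0.12 for other or less defined members (0.12), -0.04 for splicing (0.04), -0.07 for the mitochondrial group (0.01), 0.23 for export and -1.42 for the DNA helicase DDX11. The median of other or less defined members was -0.08 with no filter. The mitochondrial median was -0.03 with no filter, no centring or the summed-RPKM centre. With close paralogs left out, transcription and RNP assembly was at 0.20, splicing at -0.01 and ribosome biogenesis at 0.19. Antiviral sensing was at -0.20 with a pseudocount of 1 RPKM and -0.21 with no filter. The centre is the median of the expressed records, so a change of filter also changes the centre. With a mean of at least 5, members fell together, as DDX11 (-1.33 to -1.42), DDX6 (0.65 to 0.56) and DDX39B (0.04 to -0.04) show. That filter leaves the RPKM values and the pseudocount as they were, so each single-gene value moved only with the centre. DDX20, at a mean of 4.40 RPKM, dropped out of transcription and RNP assembly at that filter. DDX59, at a mean of 4.13 RPKM, dropped out of the other or less defined members. Stricter filters hold fewer records, and the cause of the other moves was not tested. No paired analysis was possible because each group has 1 library. Depth limits weak members: the interval of DDX26B, with 9 reads in the RNC-mRNA library, ran from -3.70 to -1.43.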
